A study of Mus musculus with 18 samples.

Results

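The genes described here encode the proteins of the cytosolic ribosome. They were taken by symbol, as Rpl or Rps followed by a number (with an optional a, x or l and further digits), together with Rplp0, Rplp1, Rplp2 and Rpsa, and symbols of pseudogenes ending in -ps were left out. The rule found 84 genes among the 24062 symbols of the count table, 51 of the large subunit (the Rpl symbols) and 33 of the small subunit. RNA was sequenced from whole liver, kidney and lung of C57BL/6 mice. CCNE-TA mice carried a tetracycline-inducible Ccne1 transgene, which encodes cyclin E1, and the rtTA activator. TA mice carried rtTA and served as controls. All mice, controls included, had doxycycline from 3 weeks of age and were killed at 4 months, and the promoter that drives rtTA is not named in the labels. There were 3 libraries for each genotype in each tissue, 18 in all.

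The large subunit joins amino acids into protein, and the small subunit reads the mRNA. Each ribosome holds a single copy of most of its proteins, and a cell makes them in matched amounts. Ribosomal protein mRNAs are short and abundant, and most begin with a run of pyrimidines at the 5′ end, the terminal oligopyrimidine tract, through which mTOR signalling controls their translation. Surplus Rpl5 and Rpl11 bind MDM2, which links ribosome assembly to p53.

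Total counts per library were 26214869 to 61954486 in liver, 20352770 to 43202066 in kidney and 41597623 to 155323865 in lung, and a count of 3 stood for at most 0.137 CPM (counts per 1e6 counts, scaled within a tissue by TMM factors). The transgene matched the labels in every library, with Ccne1 at 65.7 to 897 CPM in the 9 CCNE-TA libraries and 1.04 to 6.02 CPM in the 9 TA libraries. The defining markers of each labelled tissue were high in it. The summed levels were 88550 to 159200 CPM for 5 hepatocyte genes in liver, 18650 to 72650 CPM for 5 kidney genes in kidney and 43030 to 121600 CPM for 4 lung genes in lung. In lung the 5 hepatocyte genes summed to 369 to 2067 CPM in TA and 24.3 to 252 CPM in CCNE-TA, with 0 called. Of the erythroid genes, Hba-a1 and Hbb-bs were listed at 0 in all libraries. Alas2, the other gene of that list, had counts in every library. Its CPM ranged over 23.56 to 181.5 (liver), 25.62 to 77.12 (kidney) and 43.22 to 99.95 (lung). Some libraries stood apart. Liver TA 2 and TA 3 had no count of the kidney and androgen-responsive gene Kap, which lay between 13.1 and 25.6 CPM in the other 4 liver libraries. Xist, which is transcribed from the inactive X chromosome of females, had 781, 660 and 3.10 CPM in livers with the transgene against 402, 0.270 and 0.228 CPM in control livers, so it was high in 2 libraries of one genotype and 1 of the other. In kidney and lung it was high in replicates 1 and 2 of both genotypes and low in replicate 3. Lung CCNE-TA 1 and TA 3 differed from the other 4 lung libraries in the balance of short and long transcripts, given below with the members.

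In the control mice most members were abundant. With TMM factors over the 9 TA libraries, 75 of 84 lay above 100 CPM in liver, 74 in kidney and 73 in lung. Per kilobase of transcript, Rplp1 had the highest level in all 3 tissues, at 1530 CPM per kb in liver, 1977 in kidney and 1390 in lung. Rplp1 encodes an acidic protein of the ribosomal stalk, which recruits the translation factors. It was followed in liver by Rps2 (1247 CPM per kb) and Rpl10 (1177) and in lung by Rpl41 (1076) and Rps14 (898). Rpl35a was among the 3 highest in kidney (1373 CPM per kb).

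Levels of the same gene also differed between control tissues, as Rps2 shows. The 3 TA livers had 1045, 1364 and 1326 CPM of Rps2, the kidneys 705, 964 and 1197 CPM, and the lungs 375, 379 and 428 CPM. Rps2 lines the path by which mRNA enters the small subunit. Its lung levels lay below those of the other tissues in every library, while those of liver and kidney overlapped.

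A few members were near 0 everywhere. Rpl26 and Rpl10l had no count in any of the 18 libraries, and the lowest floor, 3 counts of the deepest library, is 0.0188 CPM. Rpl39l had 98 counts over all 18 libraries and was at 0 in 8 of them, and Rpl30 had 191, Rpl34 895, Rps27 1088 and Rpl3l 2105 counts. Rpl10l and Rpl39l are retrogene and paralog forms best known from testis, and Rpl3l is a form of striated muscle. Rpl26, Rpl30, Rpl34 and Rps27 encode core proteins of the ribosome. Of the 50-base windows of their transcripts, 71.3% (Rpl26), 76.4% (Rpl30), 37.9% (Rpl34) and 98.6% (Rps27) also occur in another gene or annotated pseudogene. For Rpl10l, Rpl39l and Rpl3l the shares were 7.6%, 0% and 0%. These shares also count genes that overlap a member at its own place in the genome, on either strand. Such genes cover 34.7% of the exon bases of Rpl30. Some members with high shares and no overlapping gene had high counts, such as Rpl9 (93.3%, 471 CPM per kb in control kidney) and Rpl10 (92.1%, 765 CPM per kb). What set the low counts of Rpl26, Rpl30, Rpl34 and Rps27 was not tested, and their values are not read as expression.

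**Figure D1:**
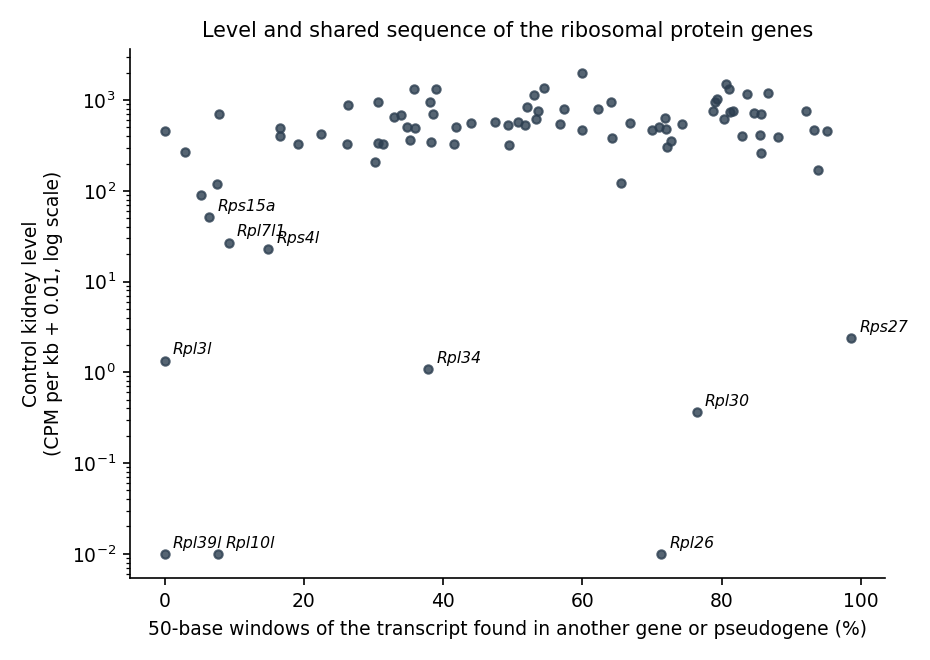
Each point is a member, with the share of its 50-base transcript windows that occur in another gene or pseudogene (x axis, percent) and its mean level in the 3 control kidneys (y axis, CPM per kb plus 0.01, log scale). The share also counts genes that overlap the member at its own place in the genome, on either strand. Names are given for members below 60 CPM per kb. Members with shares above 80% lie among the abundant ones except Rps27, and Rpl26, Rpl10l and Rpl39l lie at the bottom.

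Counts of all members made up a larger share of the liver libraries with the transgene than of the controls. The CCNE-TA livers had 2.34%, 2.28% and 2.78% of their counts in members and the TA livers 1.56%, 1.65% and 1.56%, so the groups did not overlap. In kidney the shares were 4.80%, 5.05% and 5.36% with the transgene and 4.08%, 4.56% and 4.54% without it, again with no overlap. In lung they were 3.20%, 4.09% and 4.29% against 3.88%, 3.99% and 3.18%, and the groups overlapped. The 95% Wilson intervals of these shares were at most 0.0186 percentage points wide, but they treat counts as independent and may be too narrow. With 3 libraries against 3, no p can fall below 0.10 in an exact permutation test, and none is given for the sum over members. In whole tissue, fewer cells of a type and less RNA per cell cannot be told apart.

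Short and long members did not move alike. The summed counts of the 29 members under 700 nt, divided by those of the 25 members of 1000 nt or more, gave 0.968, 0.881 and 0.996 in the CCNE-TA livers and 0.697, 0.693 and 0.713 in the TA livers. In kidney this ratio, there over 29 and 26 members, was 0.988 to 1.04 with the transgene and 0.948 to 1.01 without it. In lung, over 30 and 26 members, it was 0.714 in CCNE-TA 1 and 0.718 in TA 3, and 0.840 to 0.895 in the other 4 libraries, so that there it separated 1 library of each genotype and not the genotypes.

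**Figure D2:**
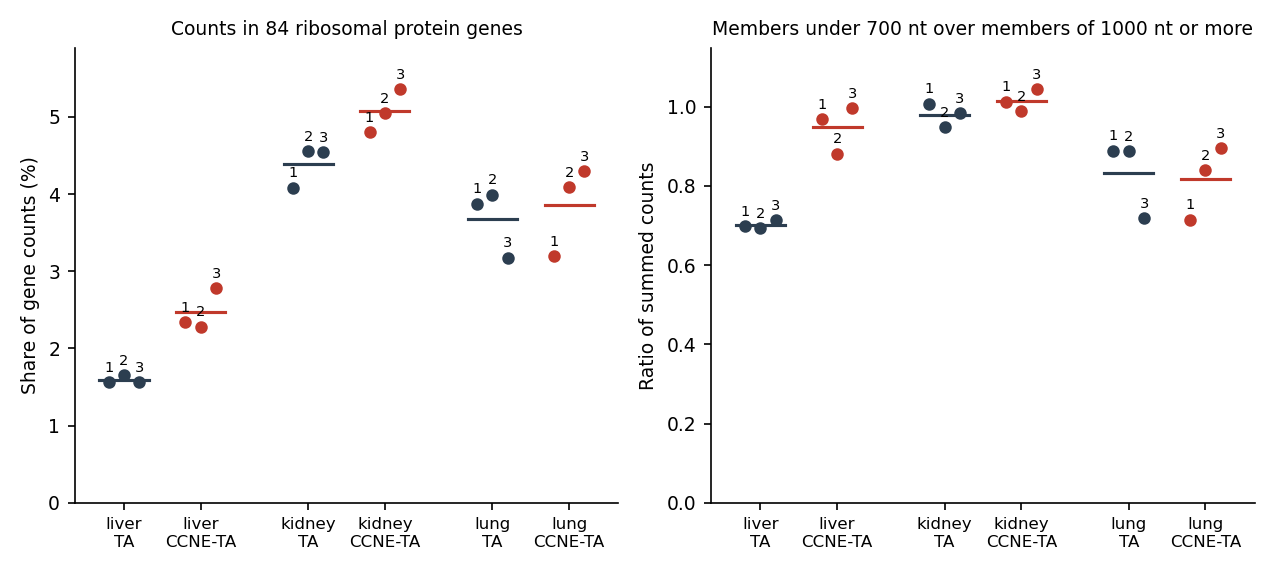
Left, percent of all gene counts that fall in the 84 members, and right, ratio of summed counts of members under 700 nt to members of 1000 nt or more. Points are libraries with their replicate numbers, and lines are group means (n = 3). Both measures are higher in all 3 CCNE-TA livers than in all 3 TA livers, and in lung CCNE-TA 1 and TA 3 lie below the other 4.

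In liver, 39 of the 79 members tested rose with cyclin E1 and none fell. The background over all 13811 tested genes was 13.7% raised and 14.8% lowered, against 49.4% and 0% of the members. At an unadjusted p under 0.05, 3 members lay on the lower side, and DESeq2 called 3 and limma-voom 1 as lowered. The median log2 fold change of the members was 0.63 and that of all genes 0.02. Of the tested members, 67 had a positive and 12 a negative value, from -0.96 (Rpl3) to 1.60 (Rpl38). The large subunit had 22 of 46 tested members raised (median 0.57) and the small subunit 17 of 33 (median 0.65). Rpl26, Rpl10l, Rpl30, Rpl39l and Rpl3l had too few counts for the test. In 52 members every CCNE-TA library lay above every TA library, as in 23.2% of all genes, and in 4 members (Rpl3, Rpl5, Rpl7l1 and Rplp0) below, as in 24.7%. With Xist as a covariate 23 members were raised and the median was 0.59. Against TA 1 alone the median was 0.72 with 0 members called, and with a term for TA 2 and TA 3 it was 0.73 with 1 called. The median SE of the members rose from 0.21 to 0.45 and 0.34 in these 2 fits, and why calls were lost was not tested.

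The 8 called members with the highest fold changes all belong to the large subunit except Rps27l. Rpl38, a protein known for its part in the translation of Hox mRNAs, had 201, 142 and 261 CPM in the CCNE-TA livers and 64.2, 65.4 and 69.6 CPM in the TA livers. The groups were far apart, with a log2 fold change of 1.60 ± 0.25 (SE; adjusted p = 0.00549). Rpl35, which sits at the exit of the peptide tunnel, had 278, 178 and 363 CPM against 86.5, 96.8 and 91.1 CPM (1.58 ± 0.28; adjusted p = 0.00772). CCNE-TA 2 was the lowest of its group for both genes and still above every control. Exons of Arpc5l and Wdr38 on the other strand cover 68.3% of the exon bases of Rpl35, and the kit does not mark strand, so reads of these genes cannot be told apart there.

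Rpl27, mutated in some patients with Diamond-Blackfan anaemia, had 420, 291 and 534 CPM in the CCNE-TA livers and 137, 158 and 164 CPM in the TA livers (1.44 ± 0.27; adjusted p = 0.00897). Rpl36 had 336, 244 and 356 CPM against 116, 139 and 129 CPM (1.29 ± 0.23; adjusted p = 0.0077). Rpl35a, another gene of that anaemia, had 377, 254 and 402 CPM against 139, 171 and 160 CPM (1.13 ± 0.24; adjusted p = 0.0131). In all of these the controls lay close together and the CCNE-TA libraries spread more widely. Rpl31, a neighbour of the tunnel exit, had 354, 264 and 308 CPM against 132, 151 and 140 CPM (1.13 ± 0.21; adjusted p = 0.00874), and 40% of its exon bases overlap Tbc1d8 on the other strand. Leaving out CCNE-TA 1, TA 1, TA 2 or TA 3 in turn left 8, 14, 10 and 8 of the members raised, while without CCNE-TA 2 the counts were 37 raised and 4 lowered and without CCNE-TA 3 40 raised.

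**Figure D3:**
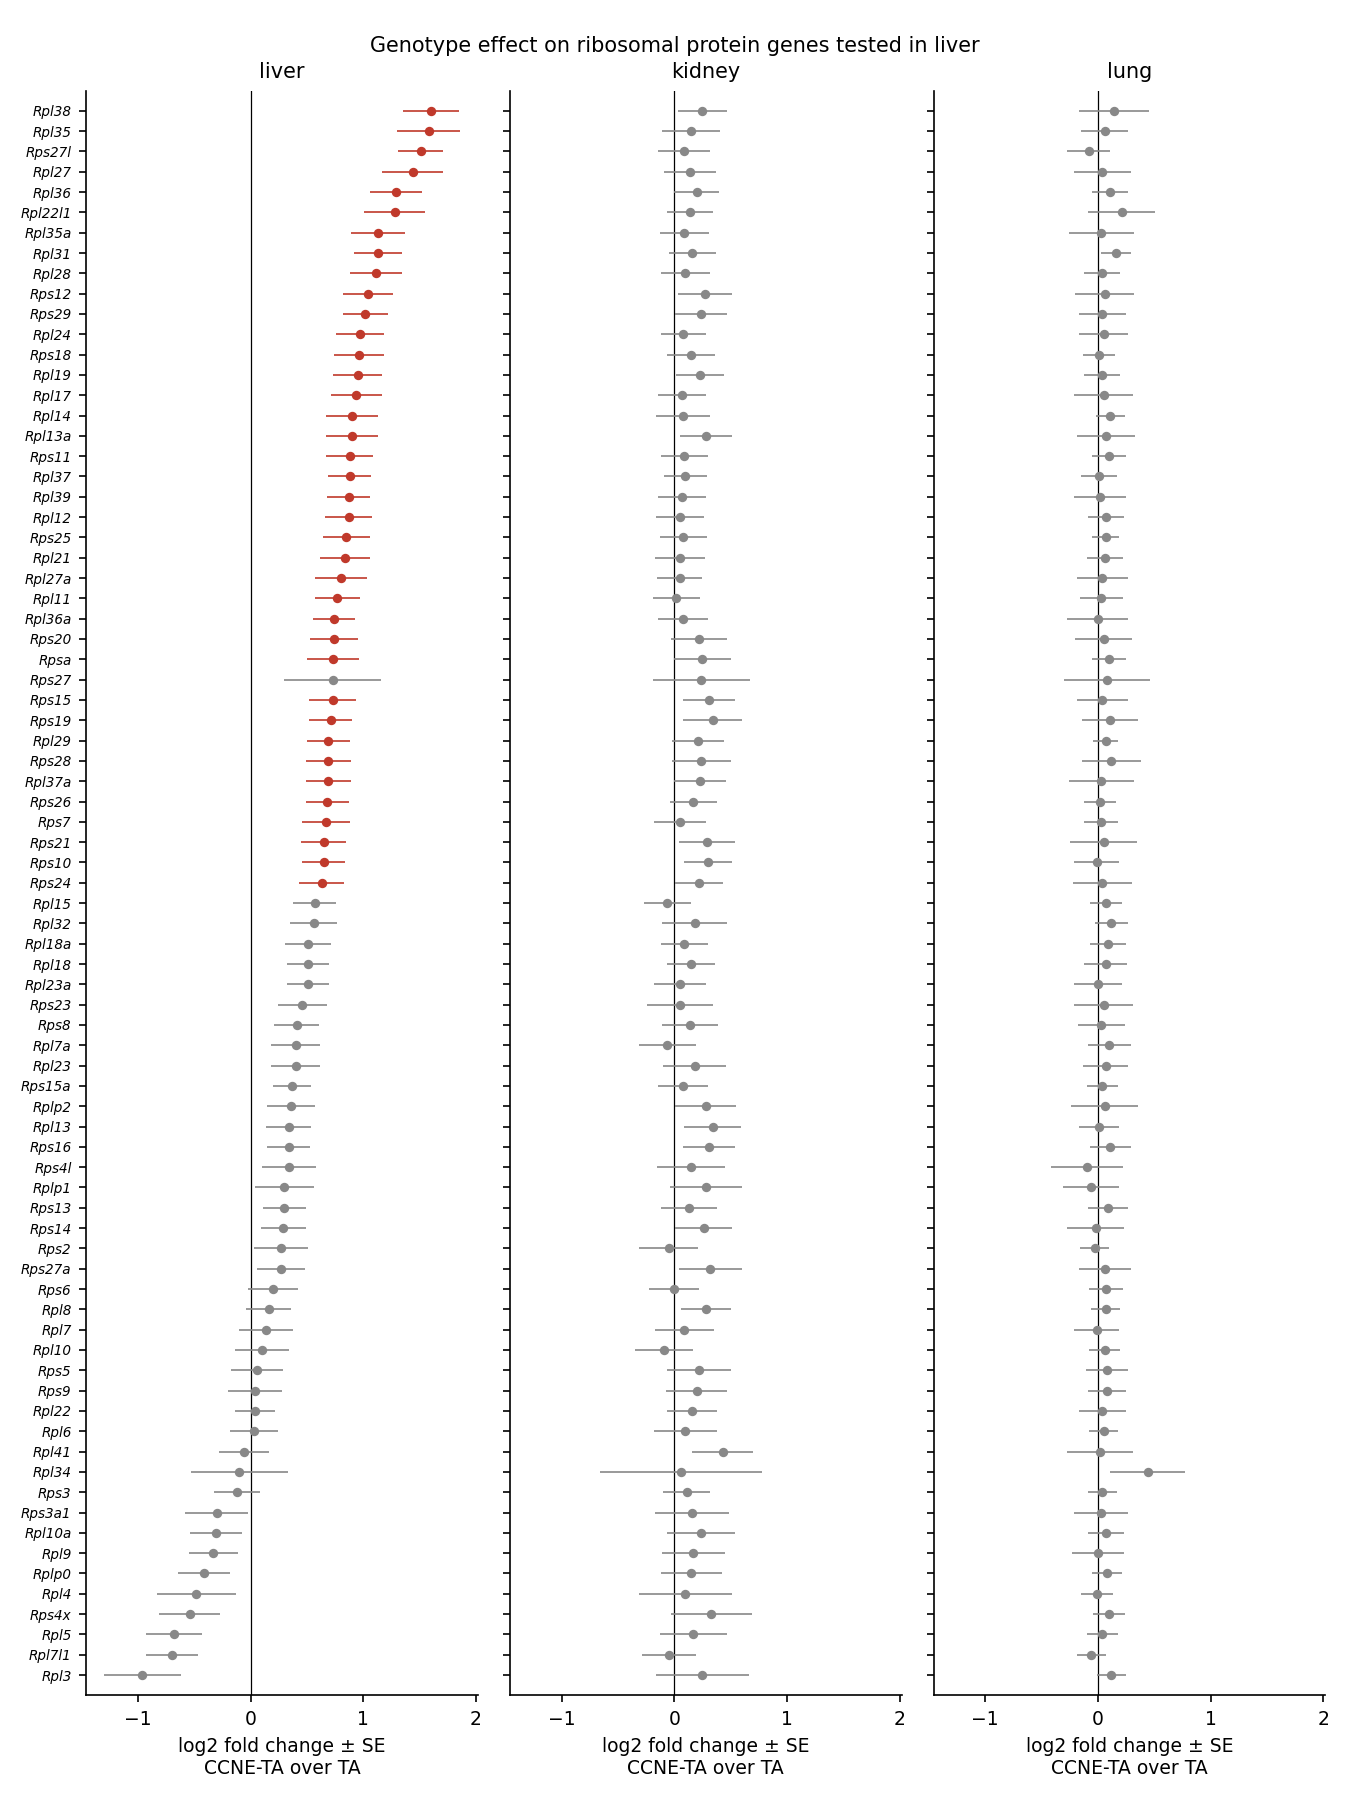
Log2 fold change of CCNE-TA over TA (x axis, ± SE, n = 3 libraries per group) for 78 of the 79 members tested in liver, ordered by the liver value, in liver, kidney and lung. Red points passed an adjusted p of 0.05 in edgeR. Red points are in liver alone, 38 of the 39 called, and before any correction for length. In kidney the values lie between -0.09 and 0.43.

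The 12 members with negative values in liver had a median transcript of 1164 nt and the 67 with positive values one of 791 nt. Rpl3, which reaches the peptidyl transferase centre, had 135, 259 and 106 CPM in the CCNE-TA livers and 271, 378 and 321 CPM in the TA livers (log2 fold change -0.96 ± 0.34; adjusted p = 0.0672). All CCNE-TA libraries lay below all TA libraries, with CCNE-TA 2 nearest. Rpl4, which lines the exit tunnel, had 456, 602 and 223 CPM against 536, 639 and 608 CPM (-0.48 ± 0.35; adjusted p = 0.328), and its groups overlapped. Rps4x, an X-linked protein of the small subunit, had 191, 270 and 139 CPM against 269, 308 and 293 CPM (-0.54 ± 0.27; adjusted p = 0.163). Its groups overlapped by a narrow margin.

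The liver values of the members fell with transcript length over much of its range, as those of other genes did, but not in every bin of length. The median transcript of the tested members was 833 nt long, against 2865 nt for all tested genes. Of the 54 members under 1000 nt 28 were raised (51.9%; median log2 fold change 0.66), and of the 919 other genes under 1000 nt 384 were raised (41.8%; median 0.78). Under 500 nt the median was 0.87 in 12 members and 1.21 in 119 other genes, and from 750 to 1000 nt it was 0.35 in 22 members and 0.63 in 504 other genes. From 1000 to 1500 nt the order turned, with 0.66 in 14 members and 0.32 in 1376 other genes, and from 1500 to 2000 nt the median was 0.60 in 6 members, 3 of them raised, and 0.19 in 1683 other genes. Longer members were few, with -0.68 in the 3 of 2000 to 3000 nt (0.05 in other genes) and 0.56 in the 2 of 3000 nt or more, Rps20 and Rps15a (-0.24 in other genes). Across genes, Spearman's rho of the liver fold change with length was -0.37 over 79 members and -0.32 over 13641 other genes. The genes share the same 6 libraries, so these are descriptions.

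The same held library by library. Each library's median deviation of the members from their liver mean, in log2 CPM, was 0.39, 0.22 and 0.18 in the CCNE-TA livers and -0.40, -0.20 and -0.29 in the TA livers. For the 919 other short genes it was 0.41, 0.28 and 0.28 against -0.38, -0.35 and -0.25. For 2429 other genes over 5000 nt it was -0.22, -0.21 and -0.10 against 0.20, 0.25 and 0.09. Members and other short transcripts thus shifted together in all 6 libraries, and long transcripts the other way.

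A correction that removes each library's trend with length and GC content changed the members' result. After it, 5 members were raised and 7 lowered, against a background of 9.01% and 12.3% of all genes, and the members' median was -0.03 beside -0.05 for all genes. The 5 raised were Rpl31 (0.78 ± 0.22; adjusted p = 0.0402), Rpl35 (0.86 ± 0.25; adjusted p = 0.0437), Rps27l (0.82 ± 0.21; adjusted p = 0.0297), Rps20 and Rps15a, and 4 of them were raised before it. The annotated principal transcript of Rps20 is 3706 nt long and that of Rps15a 5179 nt, and Rps15a, which also has a coding transcript of 640 nt, passed with the longer one only. The 7 lowered were Rpl3 (-1.28 ± 0.35; adjusted p = 0.0364), Rpl41, Rpl10a, Rpl9, Rpl5, Rplp0 and Rps4x, at -1.07 to -0.78 for the last 6. With the shortest coding transcript of every gene as its length, 12 members were raised and 2, Rpl10a and Rpl7l1, lowered (background 9.93% and 13.2%), and the median was 0.22. Rpl35, Rpl31, Rps27l and Rps20 passed under both corrections. Of these only Rpl31 has a shorter coding transcript (356 nt against 1049 nt). The lengths of Rpl35, Rps27l and Rps20 were the same in both, so their own length choice was not tested. Whether the trend arose in the RNA, the libraries or the tissue was not tested.

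**Figure D4:**
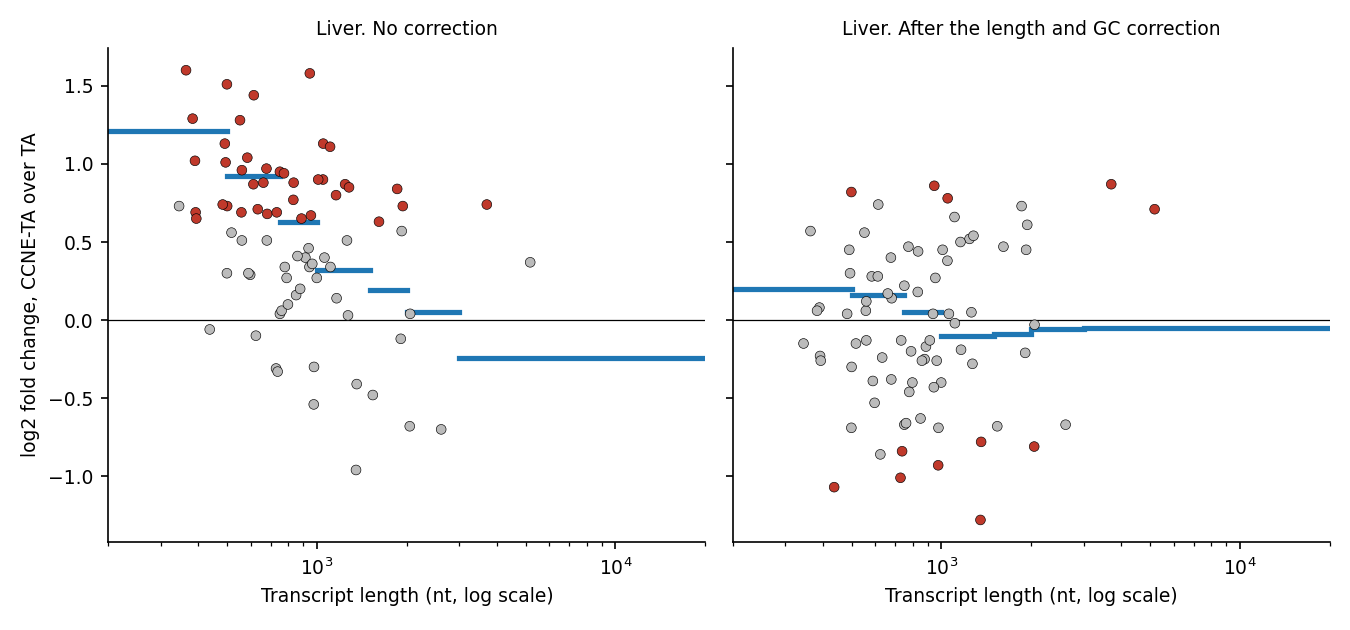
Log2 fold change in liver of each tested member against transcript length (log scale), before (left) and after (right) the length and GC correction. Red points passed an adjusted p of 0.05, grey points did not, and blue bars are the medians of all other genes in bins of length. The blue bars fall from 1.21 under 500 nt to -0.24 at 3000 nt or more on the left and lie between -0.10 and 0.20 on the right, where the members spread on both sides of 0.

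The letters around the annotated start sites of some members are shown, from 60 bases before to 30 after the start. The start is the first that RefSeq lists for each symbol on GRCm38.p6. Capitals mark the longest run of 8 or more pyrimidines that touches the 10 bases on either side of the start. The first 5 rose in liver and the last 4 did not pass the test. Rpl4, Rplp0 and Rps4x stand for the long or lower members and Rpl7l1 for the paralogs.
Rpl38, chr11:114668520-114668609, strand plus: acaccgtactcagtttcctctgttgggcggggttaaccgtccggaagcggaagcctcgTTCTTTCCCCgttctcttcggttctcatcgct
Rpl35, chr2:39005102-39005191, strand minus: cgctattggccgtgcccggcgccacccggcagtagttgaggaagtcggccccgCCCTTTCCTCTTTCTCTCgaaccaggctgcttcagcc
Rps27l, chr9:66946026-66946115, strand plus: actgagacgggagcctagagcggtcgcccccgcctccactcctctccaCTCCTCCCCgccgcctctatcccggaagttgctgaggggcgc
Rpl31, chr1:39367791-39367880, strand plus: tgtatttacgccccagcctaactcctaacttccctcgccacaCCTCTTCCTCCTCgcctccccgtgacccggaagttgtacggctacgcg
Rpl22l1, chr3:28805448-28805537, strand plus: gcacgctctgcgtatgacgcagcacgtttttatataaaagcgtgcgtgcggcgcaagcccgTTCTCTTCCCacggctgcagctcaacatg
Rpl4, chr9:64173327-64173416, strand plus: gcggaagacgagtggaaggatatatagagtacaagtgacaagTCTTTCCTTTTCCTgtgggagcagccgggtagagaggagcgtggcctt
Rplp0, chr5:115559407-115559496, strand plus: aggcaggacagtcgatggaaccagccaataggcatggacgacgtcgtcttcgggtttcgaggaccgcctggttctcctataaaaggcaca
Rps4x, chrX:102189362-102189451, strand minus: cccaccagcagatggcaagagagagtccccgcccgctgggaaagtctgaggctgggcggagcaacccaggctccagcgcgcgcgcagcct
Rpl7l1, chr17:46782627-46782716, strand minus: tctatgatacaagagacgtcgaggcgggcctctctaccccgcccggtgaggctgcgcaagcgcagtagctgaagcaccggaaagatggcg
The runs of Rpl38 and Rpl35 span the start, those of Rps27l, Rpl31 and Rpl4 end before it, and that of Rpl22l1 begins after it. Rplp0, Rps4x and Rpl7l1 hold no run of 8 in this window. A shorter tract, or one at a start other than the first listed, would be missed, so a tract is not shown to be absent.

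Promoter windows of 300 bases were in the RefSeq table for 63 of the 84 members. A pyrimidine run at the start was found in 27 of the 63 (42.9%), against 13.5% of all 27025 symbols in the table. The heptamer CCGGAAG, a core sequence of ETS factors, was found on either strand in 25 of 63 members (39.7%) and in 9.12% of all symbols. On the reverse strand its letters CTTCCGG begin with pyrimidines and can overlap a run. Among members raised in liver, 16 of 31 had the run and 16 of 31 the heptamer. Of the members tested and not raised, 11 of 28 had the run and 7 of 28 the heptamer. These are matches of letters only, and the raised calls are those before the length and GC correction.

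The stalk genes and Rpsa differed among themselves in liver. Rpsa, a small-subunit protein also described as a laminin receptor, had 863, 690 and 824 CPM in the CCNE-TA livers and 417, 518 and 493 CPM in the TA livers (0.73 ± 0.23; adjusted p = 0.0447). It was the only one of the 4 to pass, and its groups did not overlap. Rplp0, the base of the stalk, had 341, 394 and 286 CPM against 394, 490 and 468 CPM (-0.41 ± 0.23; adjusted p = 0.207), with every CCNE-TA library below every control. Rplp1 had 585, 656 and 419 CPM against 369, 511 and 473 CPM (0.30 ± 0.26; adjusted p = 0.416), and Rplp2 had 186, 191 and 129 CPM against 123, 134 and 139 CPM (0.36 ± 0.21; adjusted p = 0.232). The groups of both overlapped.

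Rpl11 rose in liver and Rpl5, its partner in the 5S ribonucleoprotein that binds MDM2, did not pass the test on the lower side. Rpl11 had 435, 373 and 413 CPM in the CCNE-TA livers against 226, 248 and 243 CPM (0.77 ± 0.20; adjusted p = 0.0258). Rpl5 had 157, 244 and 150 CPM against 261, 315 and 305 CPM (-0.68 ± 0.25; adjusted p = 0.0722). In both genes the groups were apart, in opposite directions. The transcripts are 833 nt (Rpl11) and 2045 nt (Rpl5) long, and once length and GC content were corrected for, the values were 0.18 (adjusted p = 0.533) and -0.81 (adjusted p = 0.0446). Exons of Fam69a on the other strand cover 46.6% of the exon bases of Rpl5.

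Of the paralogs, Rps27l and Rpl22l1 rose in liver. Rps27l, which is described as a transcriptional target of p53, had 325, 285.5 and 333 CPM in the CCNE-TA livers and 97.1, 110.0 and 123 CPM in the TA livers (1.51 ± 0.20; adjusted p = 0.00349). This was the smallest adjusted p of any member. In kidney it had 257, 275 and 296 CPM with the transgene and 201, 247 and 328 CPM without it (0.09 ± 0.23; adjusted p = 0.999), and in lung 53.5, 72.4 and 73.2 CPM against 76.5, 76.6 and 57.0 CPM (-0.08 ± 0.19; adjusted p = 0.9999). Its levels separate the genotypes in liver and overlap in the other tissues. The parent symbol Rps27 stayed under 2 CPM in all libraries and is not read, as said above.

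Rpl22l1 is the paralog of Rpl22, which is known to repress it. It had 59.2, 62.6 and 73.6 CPM in the CCNE-TA livers against 17.6, 36.3 and 26.9 CPM in the TA livers (1.28 ± 0.27; adjusted p = 0.0121). Rpl22 had 113, 109 and 89.5 CPM against 92.3, 104.5 and 107 CPM (0.04 ± 0.18; adjusted p = 0.900), so the parent's groups overlapped while the paralog's did not. Rpl22l1 was the 1 member called with the term for liver TA 2 and TA 3. After the length and GC correction it had 0.56 ± 0.30 (adjusted p = 0.195), and exons of Gm33051 on the other strand cover 28.8% of its exon bases.

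Rpl7l1 is a longer transcript of 2606 nt. It had 44.1, 61.9 and 36.1 CPM in the CCNE-TA livers against 78.3, 68.1 and 84.6 CPM in the TA livers (-0.70 ± 0.23; adjusted p = 0.0503), just outside the threshold and with no overlap, and DESeq2 and limma-voom called it as lowered. Its parent Rpl7 had 437, 454 and 292 CPM against 342, 370 and 362 CPM (0.14 ± 0.24; adjusted p = 0.689). Rps4l, annotated as a transcribed processed pseudogene, had 0.34 ± 0.24 (adjusted p = 0.303). Rpl39 rose (0.87 ± 0.19; adjusted p = 0.0146) and Rpl10 had 0.10 ± 0.24 (adjusted p = 0.769).

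**Figure D5:**
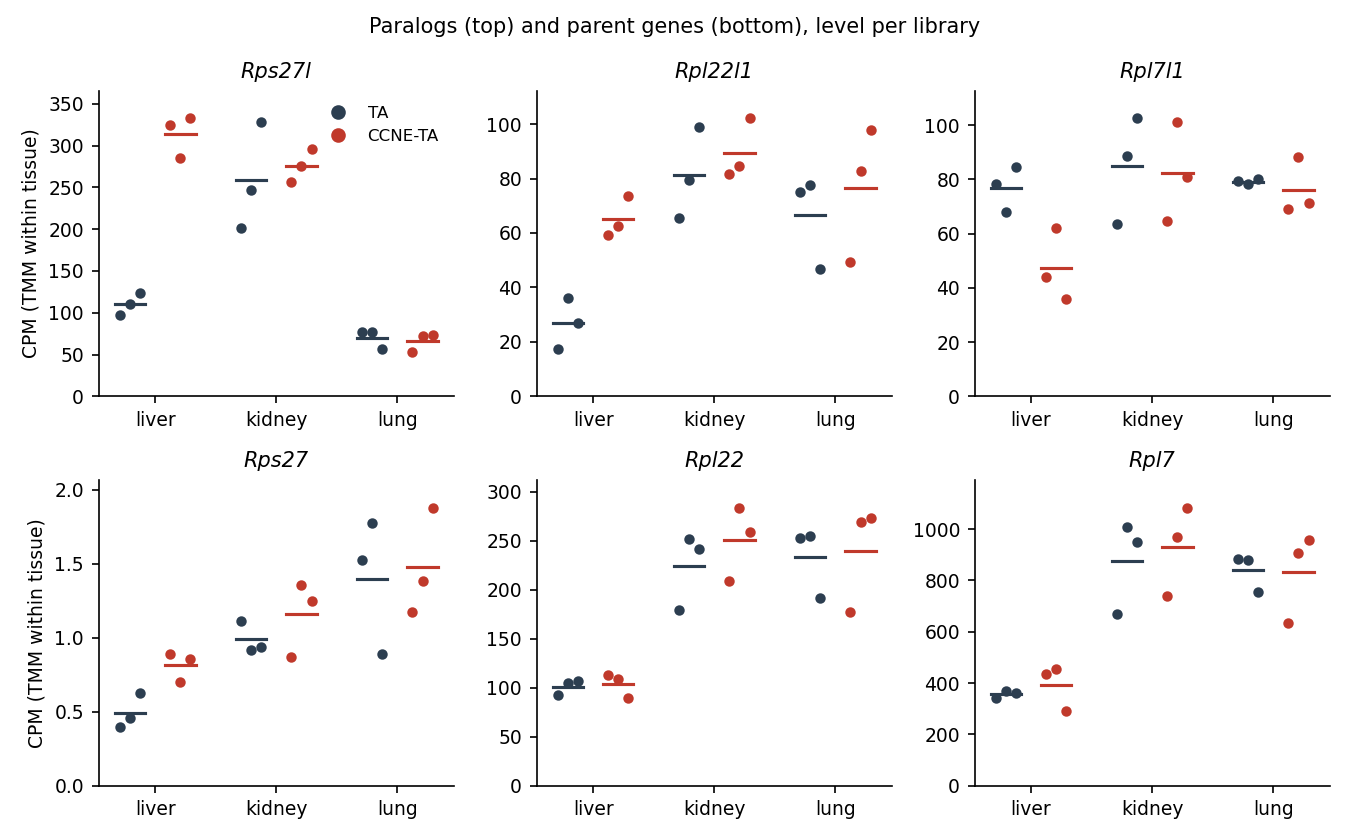
Level per library (y axis, CPM with TMM factors within a tissue) of the paralogs Rps27l, Rpl22l1 and Rpl7l1 (top) and of the parents Rps27, Rpl22 and Rpl7 (bottom) by tissue and genotype. Points are libraries and lines are means (n = 3). Rps27l and Rpl22l1 are higher in all CCNE-TA livers than in all TA livers, and Rps27 stays under 2 CPM throughout.

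Other genes of the translation machinery were counted in liver beside the same background of 13.7% raised and 14.8% lowered. Of 77 mitochondrial ribosomal protein genes 18 rose and 5 fell (median 0.13), among them Mrpl23 (1.52) and Mrps33 (0.97), and after the correction 6 rose and 9 fell. Of 66 ribosome biogenesis genes 2 rose and 12 fell (median -0.18). Tsr1, needed for small-subunit maturation, went from 15.8 ± 3.15 CPM in TA to 3.75 ± 0.737 CPM in CCNE-TA (SD, n = 3; -2.08; adjusted p = 0.00275), and Bop1, a large-subunit assembly factor, fell by 1.28 on the log2 scale. Of 26 tested translation factors and other genes with 5′ pyrimidine tracts 3 rose and 9 fell (median -0.52), among them the elongation factor Eef2, with 1772 ± 119 CPM in TA and 663 ± 213 CPM in CCNE-TA (-1.42; adjusted p = 0.013). Of 21 regulators of translation 3 rose and 3 fell. Eif4ebp2, an inhibitor of cap-dependent translation, fell by 3.61 on the log2 scale (91.8 ± 12.8 to 7.52 ± 2.57 CPM), and Trp53 (0.77) and Mdm2 (0.82) rose. After the length and GC correction Trp53 had 0.46 (adjusted p = 0.0656) and Mdm2 0.94 (adjusted p = 0.03). Under it 0 biogenesis genes rose and 16 fell, 1 of the translation factor list rose and 9 fell, and 2 regulators rose and 2 fell. The median transcript lengths of these lists were 1226, 2630.5, 1881.5 and 3358 nt in that order. Fau, Rpl36al and Gnb2l1, ribosomal proteins whose symbols the rule does not take, had 0.35, 0.50 and -0.12 with 0 of 3 called.

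Markers of some cell types moved with the liver genotype beside the members. All 3 endothelial genes fell, from a summed 63.2 to 81 CPM in TA to 23.6 to 26.4 CPM in CCNE-TA, and all 4 proliferation genes rose, from 3.97 to 10.9 CPM to 24.4 to 62.9 CPM. Of 6 lymphocyte genes 0 were called (4.88 to 11.8 CPM in CCNE-TA, 2.92 to 6.76 CPM in TA), as of 3 macrophage genes (141 to 265 against 130 to 269 CPM). Pancreas genes summed to 0.889 to 1.31 CPM in CCNE-TA and 1.34 to 137 CPM in TA. Their part in the members' values was not tested.

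In kidney no member passed the test. Of 80 tested members 0 were raised, against a background of 0.0131%, and 0 lowered, against 0%, with 0 at an unadjusted p under 0.05 and 0 called by DESeq2 or limma-voom. The median log2 fold change was 0.15 and that of all genes 0.00, and 74 members had a positive value. The highest was Rpl41, a very short basic peptide, with 566, 911 and 940 CPM in the CCNE-TA kidneys and 470, 667 and 656 CPM in the TA kidneys (0.43 ± 0.27; adjusted p = 0.999). Over all 6 libraries the groups overlapped, with CCNE-TA 1 inside the range of the controls. All CCNE-TA libraries lay above all TA libraries in 4 members, Rpl19, Rps24, Rps10 and Rpl36 (5% of the members, 3.04% of all genes), and below in 0 (2.68% of all genes). Without TA 1 the members' median was 0.04. The labels name no pairs, but the numbers of the kidney libraries were taken to pair them across genotypes. This rests on the correlations given with the processing, which come from these same data. Replicate 3 of both genotypes was low in Xist, and what paired libraries share was not tested. Within pairs the members leaned one way. Rpl41 was higher with the transgene in all 3 pairs, as were the members' share of counts and each library's median deviation of the members (-0.08, 0.13 and 0.21 against -0.36, 0.01 and 0.07). Of the 80 members 49 were higher in all 3 pairs, against 13.1% of all genes, and 0 were lower in all 3, against 13.9%. The members share the same 6 libraries, so these counts are descriptions. With the pairs as a block in edgeR the median was 0.16, the median SE went from 0.23 to 0.11, and 13 members were higher and 0 lower at an unadjusted p under 0.05. None passed after adjustment (smallest adjusted p = 0.672), and Rpl41 had 0.41 ± 0.11. In kidney the values fell with transcript length in the members (Spearman's rho -0.27 over 80), from a median of 0.24 under 500 nt to 0.10 from 1000 to 1500 nt, while other genes showed no such trend (rho -0.02 over 15064). With GC content the members' rho was 0.36, and length and GC content were not separated here.

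In lung 0 of 82 tested members were raised and 0 lowered, against 0.00594% and 0% of all genes, with 0 at an unadjusted p under 0.05 and 0 by DESeq2 or limma-voom. The median was 0.05 beside 0.02 for all genes, and 68 members had a positive value. The groups were apart in 1 member, Rpl34, which is near 0 (3.3% of all genes above, 4.59% below). The spread between libraries exceeded the genotype difference. Each library's median deviation of the members was -0.26 in CCNE-TA 1 and -0.24 in TA 3, and 0.07 to 0.18 in the other 4. The 1364 other genes under 1000 nt gave -0.25 and -0.24 in the same 2 libraries and 0.05 to 0.15 in the others, and genes over 5000 nt gave 0.23 and 0.15 against -0.14 to -0.06. Without these 2 libraries the members' median was 0.09 with 0 called.

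The genotype effect of some members differed between tissues by the interaction term. In liver against kidney 9 of 81 members had a higher effect in liver and 0 a lower one, against 4.78% and 4.74% of all genes. They included Rpl35 (difference of log2 fold changes 1.42 ± 0.37; adjusted p = 0.0277), Rps27l (1.41 ± 0.29; adjusted p = 0.0129), Rpl38, Rpl27, Rpl36, Rpl28, Rpl31 and Rpl37, from 1.34 to 0.77 for the last 6. At an unadjusted p under 0.05, 2 members lay on the lower side, and DESeq2 called 0 there. In liver against lung 11 of 81 had a higher effect and 0 a lower one (6.23% and 6.51% of all genes; 0 lower at an unadjusted p under 0.05 and 0 by DESeq2), namely the same 9 with Rps18 and Rpl19, and both contrasts share the liver libraries. Kidney and lung differed in 0 of 81 members in either direction (0% and 0.00583% of all genes; 0 at an unadjusted p under 0.05 and 0 by DESeq2). After the length and GC correction 0 members were higher and 1, Rpl41, lower in liver against kidney (2.66% and 4.21% of all genes), and 0 and 0 in liver against lung (3.02% and 5.98%). With liver TA 1 as the only liver control, the counts were 0 and 1.

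Levels in the control tissues were compared in the 9 TA libraries, and these counts depended on scaling and on length. In control liver against kidney 3 of 81 members were higher and 33 lower, against 30.5% and 34.5% of all genes, with a median of -0.47. The lowest were Rpl35 (-1.49 ± 0.20; 155 ± 8.46 CPM in liver and 436 ± 66.5 CPM in kidney, SD, n = 3; adjusted p = 8.97e-05), Rpl38 (-1.43), Rpl35a (-1.34), Rpl36 (-1.22) and Rpl27 (-1.18). The 3 higher were Rpl7l1 (0.90 ± 0.18; adjusted p = 0.0015), Rps4x (0.71) and Rpl10 (0.62). After the length and GC correction the order turned, with 23 higher and 10 lower (38.8% and 27.8% of all genes), and Rpl36 went from -1.22 to 0.37 (adjusted p = 0.0761).

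In control lung against kidney 0 members were higher and 36 lower, against 31.3% and 29.3% of all genes, with a median of -0.51 and 0 higher at an unadjusted p under 0.05 (DESeq2 2 higher, limma-voom 0). With library size alone the split was 4 higher and 25 lower. Rps27l stood lowest, with 51.1, 51.2 and 37.5 CPM in the lungs and 165, 204 and 270 CPM in the kidneys (-2.19 ± 0.22; adjusted p = 2.01e-05). It was followed by Rpl28 (-1.77) and Rpl36 (-1.77), and Rpl14 (-1.41) and Rpl24 (-1.39) were also among the 6 lowest. After the correction 2, Rpl9 and Rps4x, were higher and 28 lower (27% and 33.8% of all genes), and Rps27l had -1.73 (adjusted p = 2.45e-05).

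In control liver against lung 16 members, Rpl34 with near 0 counts among them, were higher and 2 lower, against 34.7% and 36.9% of all genes, and the median of 0.13 turned to -0.32 with upper quartile scaling and to -1.28 with library size alone. The counts were then 3 higher and 21 lower, and 1 higher and 75 lower, and with RLE factors 9 and 3. The higher members were led by Rps27l (2.0 ± 0.22; 187 ± 19.7 CPM in liver and 46.6 ± 7.91 CPM in lung; adjusted p = 1.95e-05), Rps2 (1.66 ± 0.26; adjusted p = 0.000249), Rpl7l1 (1.31), Rpl10 (0.89) and Rpl4 (0.85). The lower ones were Rps19 (-0.72 ± 0.24; adjusted p = 0.0191), a further gene of Diamond-Blackfan anaemia, and Rps12 (-0.61 ± 0.22; adjusted p = 0.0267). After the correction 38 were higher and 0 lower (45.4% and 30.7% of all genes), and Rps19 had 0.02 (adjusted p = 0.941).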

How the data were processed

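Raw counts per gene symbol, whole numbers with no normalization, were deposited by the authors for 18 libraries of mouse liver, kidney and lung. Per the submitters' processing notes, TopHat2 2.0.14, Bowtie2 2.2.6 and featureCounts 1.4.6 of Subread were used with the build mm10. How strand and multi-mapped reads were treated is not given in the sources used here. Between 1 and 20, 64.2% to 71.2% of the counts of a library were even, so counts are not independent molecules. The Wilson intervals treat counts as independent and may be too narrow even for counting error. Intervals and floors cover no other spread. Nothing in the labels says that the 3 libraries of a group came from separate mice, and p values measure the spread between these libraries.

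Each tissue was fitted with edgeR 4.0.16 in R 4.3.3 (filterByExpr, TMM scaling, robust quasi-likelihood test), with TA as the reference. Benjamini-Hochberg adjustment covered every gene tested, and the threshold for a call was 0.05. Where no tool is named, an adjusted p is edgeR's. A prior count of 2 was used in the log2 CPM behind the length and GC correction and the Xist covariate. Log2 fold changes of edgeR carry its default prior count. Control tissues were compared in the 9 TA libraries, and differences of the genotype effect between tissues in 1 fit of all 18. The length and GC correction removed, per library, a natural spline of 4 degrees of freedom in log2 transcript length and another in GC content. Lengths came from GENCODE M21 on the same build, and 98.4% of 24062 symbols had one. The principal coding transcript of a gene was used. Steps were tested on simulated counts with a known length trend. Alternatives used DESeq2 1.42.0, limma 3.58.1, other scalings, filters and designs, and left out each library in turn.

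In kidney, libraries with the same replicate number deviated together from their group means (correlations across genes of 0.38, 0.57 and 0.39), so the numbers were taken to pair them. In liver (0.18, 0.00 and 0.08) and lung (-0.51, -0.04 and -0.59) they were not.

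The members follow a symbol rule. Named genes are the stalk genes and Rpsa, up to 8 called members by size per tissue and direction, up to 6 per control contrast and direction, the paralogs with their parents, Rpl5 and Rpl11, the 3 highest and 3 lowest per length, and up to 4 genes of each other list by p. Members, lists and named genes were chosen with earlier results of these data known. Members named beside a count or as an extreme outside this rule, Rpl4 and Rpl41 among them, were named after their values were seen. Single values of some genes are not reported here, and the counts include those genes. Promoter sequences are RefSeq's on GRCm38.p6.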

Additional observations from a re-analysis of the deposited data

Results flagged for a closer look

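The genotype effect differed between tissues by the interaction term in 6 members whose liver values are given above, and no explanation was tested. In liver against kidney the differences of log2 fold changes were 1.34 for Rpl38 (adjusted p = 0.0393), 1.42 for Rpl35 (0.0277), 1.41 for Rps27l (0.0129), 1.28 for Rpl27 (0.0393), 1.07 for Rpl36 (0.0245) and 0.96 for Rpl31 (0.0246). In liver against lung they were 1.43 for Rpl38 (adjusted p = 0.0271), 1.48 for Rpl35 (0.0206), 1.57 for Rps27l (0.00708), 1.37 for Rpl27 (0.0266), 1.15 for Rpl36 (0.0165) and 0.94 for Rpl31 (0.0232). These are edgeR values over 3 libraries per group, and both contrasts share the liver libraries. All 6 members are among the 8 named for the highest liver fold changes in these same libraries. That choice favoured a larger effect in liver. After the length and GC correction none of the 6 passed. In liver against kidney they then had 0.36 for Rpl38 (adjusted p = 0.449), 0.72 for Rpl35 (0.160), 0.69 for Rps27l (0.103), 0.58 for Rpl27 (0.254), -0.05 for Rpl36 (0.935) and 0.56 for Rpl31 (0.185), and in liver against lung the smallest adjusted p was 0.0527, for Rps27l (0.83). With a replicate block, 1 member differed between liver and kidney and 2 between liver and lung.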

How the results depend on the processing

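In liver, the members raised (39) numbered 5 with the length and GC correction, also when it was fitted without the members, 12 with the shortest coding transcript, 23 with Xist as a covariate, 1 when TA 2 and TA 3 had a term of their own and 0 against TA 1 alone. The members lowered (0) numbered 7, 7 and 2 under those corrections, 3 with DESeq2, and 1 each with limma-voom, TMM without the members, no filter and 1 fit of all 18 libraries. The median (0.63) was -0.03, -0.03 and 0.22 under the corrections, 0.82 with upper quartile scaling and 0.79 with library size alone, which moved the median of all genes from 0.02 to 0.21 and 0.18. Leaving out 1 library gave 8 to 40 raised, 0 to 4 lowered and medians of 0.53 to 0.67. Fewer libraries were fitted there, and the cause of the other changes was not tested.

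With a replicate block, which pairs libraries by number, 19 members were raised and 1 lowered in liver, 1 was lower in control liver against lung, and the genotype effect differed in 1 (liver against kidney) and 2 members (liver against lung). The block changed no other call by over 1.5 times, kidney included.

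With the length and GC correction, corrected against main values were -0.69 for Rplp1 (0.30), -0.26 for Rplp2 (0.36), -0.19 for Rpl7 (0.14), -0.03 for Rpl22 (0.04), -0.43 for Rps4l (0.34) and -0.40 for Rpl10 (0.10), none called before. Fitted without the members they were -0.69, -0.26, -0.19, -0.03, -0.44 and -0.41. With the shortest transcript, Rplp1, Rplp2, Rpl22, Rps4l and Rpl10 had -0.34, -0.26, -0.28, -0.21 and -0.09, and Rpl10 had -0.02 with Xist. Rpl7l1 had 0.00 in kidney with library size alone and 0.02 in lung without CCNE-TA 1 and TA 3. Leave-one-out ranges crossed 0 for values near it: -0.02 to 0.25 for Rpl10 in liver, -0.04 to 0.13 for Rpl22 in liver, -0.01 to 0.44 for Rpl22l1 in lung, -0.22 to 0.11 for Rpl7l1 in kidney, -0.17 to 0.01 for Rpl7l1 in lung, -0.05 to 0.30 for Rps27l in kidney and -0.21 to 0.05 for Rps27l in lung.

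Control liver against kidney (3 higher, 33 lower) gave 6 higher with limma-voom, 1 with RLE factors, 1 and 54 with upper quartile scaling, 0 and 73 with library size alone, 0 lower in the 9 CCNE-TA libraries, and 23 and 10 with the length and GC correction. Lung against kidney (0 higher) gave 2 higher with DESeq2, 2 with upper quartile scaling, 4 with library size alone, 1 with no filter and 2 with the correction. Liver against lung (16 higher, 2 lower) gave 6 lower with DESeq2, 9 higher with RLE factors, 3 and 21 with upper quartile scaling, 1 and 75 with library size alone, 35 and 0 in the 9 CCNE-TA libraries, and 38 and 0 with the correction. Leaving out 1 library gave 1 to 5 higher and 26 to 42 lower, 0 to 1 and 30 to 48, and 9 to 14 and 0 to 6 in that order.

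The genotype effect differed between liver and kidney in 9 members and between liver and lung in 11. These were 26 and 32 with DESeq2, 17 and 25 with upper quartile scaling, 15 and 22 with library size alone, 0 and 1 without liver TA 2 and TA 3, and 1 and 0 with the correction. What set the counts of the near-zero members was not tested.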
